A study of Mus musculus with 2 samples.

Results

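The serpins, a family of protease inhibitors and related proteins, were examined in RNA sequencing of mouse embryonic fibroblasts, mesenchymal cells grown from embryos. The members were the 63 rows whose gene symbol begins with Serpin, out of 23365 genes in the authors' deposited table, and they were sorted into clades a to i by the letter that follows. The labels describe 2 genotypes of these cells, wild type and TET1/TET2 knocked out, the targets being enzymes that oxidize 5-methylcytosine in DNA, with 1 library per genotype. The labels give no allele, strain, embryo age, number of embryos or culture time, and call the molecule genomic DNA although their protocol extracts RNA.

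The table sets a condition A against a condition B and names the genotype of neither. For that reason the columns with 1 value per condition were not used here, and no direction is assigned to wild-type or knock-out cells. What follows uses the authors' mean normalized count over both conditions, called the mean, and their ratio of condition B over condition A, with its log2. Every mean, ratio and p-value given for a gene is that of the authors' deposited table. By the authors' deposited table the targeted genes Tet1 and Tet2 were 3.54-fold and 1.67-fold lower under condition B, with adjusted p-values of 0.851 and 1, which does not identify the knock-out. No difference has a replicate check, and the authors' adjusted p-values compare 2 libraries. Of 12 fibroblast markers, 12 reached a mean of 50. Of 10 hepatocyte markers 1 did so, and Ttr, Tat, Ahsg and Hnf4a were listed at 0 in both conditions by the authors' deposited table. Of 11 keratinocyte and epithelial markers 2 reached it, of 10 trophoblast markers 1, of 9 leukocyte markers 4, of 7 mast cell markers 0, of 6 endothelial markers 3 and of 6 neuronal markers 3. Fewer cells of a type and less RNA per cell cannot be told apart in these libraries.

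Serpins share a fold with an exposed reactive centre loop that a target protease cleaves. Cleavage triggers a large change of shape that traps the protease in an inactive complex. Clade a holds mostly secreted, liver-made proteins such as antitrypsin, clade b proteins that stay inside cells, and the smaller clades secreted regulators of clotting, fibrinolysis and complement. Some members inhibit no protease, among them the collagen chaperone Serpinh1. In fibroblasts the family is known for Serpinh1, which serves collagen secretion.

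Of the 63 members, 18 were listed at 0 in both conditions by the authors' deposited table (28.6%, against 25.8% of all genes). Another 26 had reads but a mean under 50, and 19 reached that minimum, which is 30.2% of members against 53.1% of all genes. Clade a had 4 of 25 members at the minimum and clade b 9 of 27. The others came from clades e to i, while the single members of clades c and d stayed under it.

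A few genes carried much of the family's RNA. Serpinh1, the only gene of clade h, held 32.6% of the summed means of all members, Serpinf1 12.9%, Serpine2 9.03% and Serpinb6a 8.94%. Clade b as a whole held 17.8% and clade a 1.71%. Clades g and i held 0.302% and 0.237%.

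**Figure D1:**
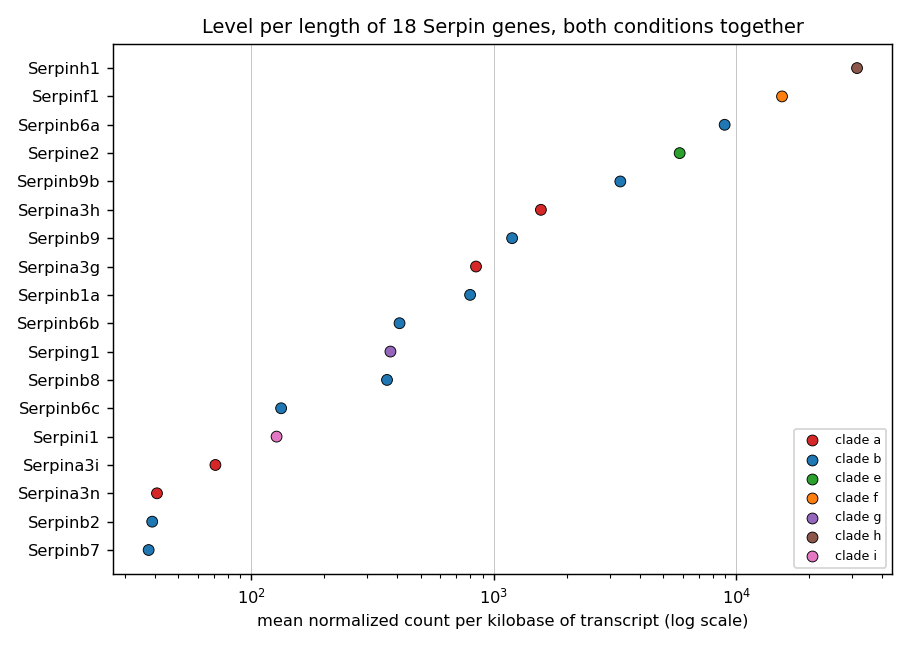
Mean normalized count per kilobase of the longest transcript (log scale, horizontal) for 18 Serpin genes with a mean of at least 50, 1 point per gene, coloured by clade. Levels ran from 37.7 per kilobase for Serpinb7 to 31461 for Serpinh1.

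Per kilobase of the longest transcript, levels ran from 37.7 for Serpinb7 to 31461 for Serpinh1. On this scale Serpinf1 stood at 15433, Serpinb6a at 8949, Serpine2 at 5838 and Serpinb9b at 3323. In the plot of levels per kilobase these 5 genes lie above every gene of clade a, of which Serpina3h is the highest at 1563. These levels average both conditions and have no error, so which neighbours in the order differ cannot be said.

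The size rule used here counts a log2 ratio of at least 1 in either direction. Among the 19 members at the minimum, 9 were higher under condition B by this rule, 2 were higher under condition A and 8 lay within it. Over all 12401 genes at the minimum, 8.31% were higher under condition B and 9.60% higher under condition A, against 47.4% and 10.5% of the members. The authors' deposited table gives 6 of the 19 an adjusted p under 0.1, all higher under condition B, and 0 higher under condition A. Over all genes at the minimum 1.98% were called higher under condition B and 1.22% higher under condition A. A gene that is near 0 in 1 condition reaches the minimum only if it is high in the other, so these counts describe the 19 genes and not the family. Some marker lists also leaned to condition B. Of the 12 fibroblast markers, 5 (Dcn, Lum, Thy1, Postn and Pdgfra) were higher under condition B past the size rule and called by the authors' deposited table, and 0 were higher under condition A. The 3 endothelial markers at the minimum, Emcn, Kdr and Tek, had log2 ratios of 6.06, 2.78 and 1.21 there. Under the minimum, Pecam1 had a log2 ratio of 2.06 at a mean of 9.80 and Cdh5 one of -0.36 at 8.43. Tie1, with a mean of 0.474, is listed at 0 under condition B. The part of these cell types in the members' ratios was not tested. With a minimum mean of 200 the count of members higher under condition B was 5 of 14, against 6.27% of all genes. With no minimum it was 25 of 45 members with reads, against 18.2% of all genes, and 10 of these 25 are members listed at 0 under condition A, at 1 to 4 steps of the smallest mean. Without members that have a near-identical transcript elsewhere in the family (85% or more), 5 of 12 were higher under condition B and 3 were called.

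**Figure D2:**
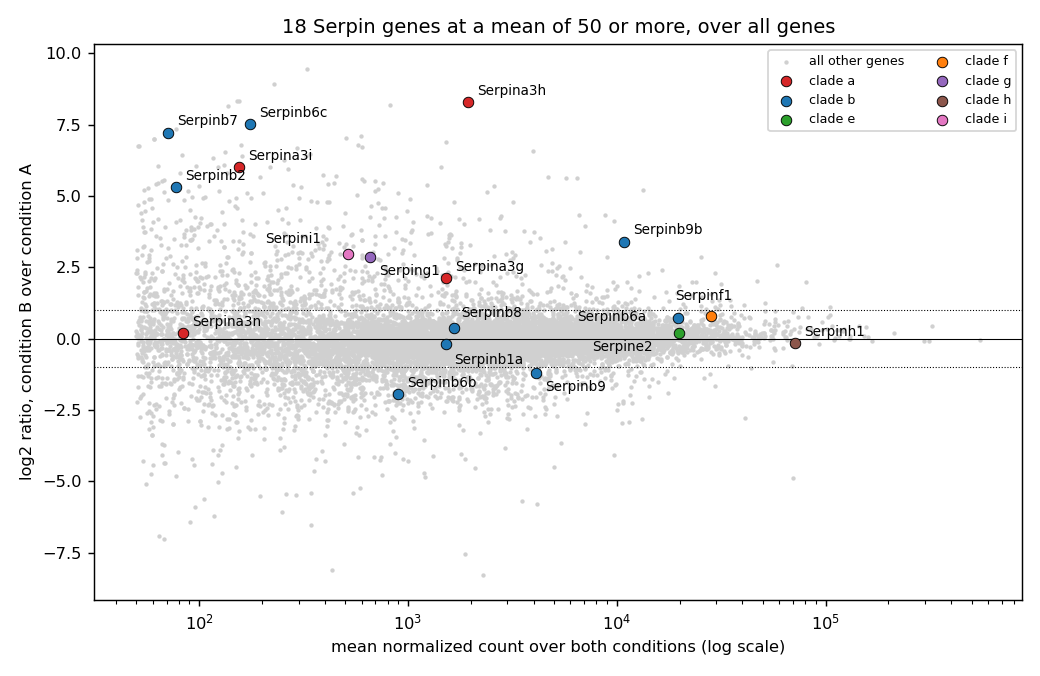
Log2 ratio of condition B over condition A (vertical) against the mean normalized count over both conditions (horizontal, log scale) for 18 Serpin genes at a mean of 50 or more, coloured by clade, over other genes in grey. Dotted lines mark log2 ratios of 1 and -1. Serpina3h, Serpinb6c and Serpinb7 lie above 7, and Serpinb6b at -1.93 is the lowest member.

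Among regulators of fibrinolysis, levels spanned a wide range. Serpine2, or protease nexin, which inhibits thrombin and plasminogen activators, had a mean of 19807 and a log2 ratio of 0.19 by the authors' deposited table (adjusted p = 1). This ratio lay within the size rule. Serpine3, of the same clade, had a mean of only 2.06 by the authors' deposited table. Serpinf2, the circulating inhibitor of plasmin, had a mean of 5.17 in the same table. Serpinb2, an inhibitor of the urokinase-type activator that is largely kept inside cells, was 40.0-fold higher under condition B by the authors' deposited table, at a mean of 77.8, and did not pass (adjusted p = 0.216).

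Serpini1, or neuroserpin, inhibits tissue plasminogen activator and is best known in neurons. Its mean was 519. It was 7.83-fold higher under condition B by the authors' deposited table (log2 ratio 2.97, adjusted p = 0.0403). The neuronal markers Tubb3, Map2 and Stmn2 had log2 ratios of 0.53, 0.08 and 0.21 there, and Rbfox3 was listed at 0 in both conditions. Serpini2, the other gene of clade i, was listed at 0 in both conditions by the authors' deposited table.

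Serping1, the inhibitor of the first complement proteases C1r and C1s and of plasma kallikrein, had a mean of 662. It was 7.21-fold higher under condition B by the authors' deposited table (log2 ratio 2.85, adjusted p = 0.0353). Of 5 genes of those complement proteases and their relatives at the minimum, 0 were higher under condition B past the size rule and Masp1 was higher under condition A, with a log2 ratio of -1.05 by the authors' deposited table. C1s, a direct target, had a log2 ratio of 0.94 there, and the C1r-like protease C1rl one of 0.25.

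Serpinf1, or pigment epithelium-derived factor, a secreted regulator of blood vessel growth that inhibits no protease, had a mean of 28273. Its ratio was 1.74 by the authors' deposited table (log2 0.80, adjusted p = 1), within the size rule. Serpinh1, or Hsp47, which chaperones procollagen in the endoplasmic reticulum, had the highest mean of the family, 71542, and a log2 ratio of -0.15 by the authors' deposited table (adjusted p = 1). Of 28 collagen folding partners at the minimum, 2 were higher under condition B and 1 higher under condition A past the size rule, and their median log2 ratio was 0.06. The median over all genes at the minimum was -0.04.

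Several plasma inhibitors of clotting were at trace levels or listed at 0. Serpinc1, or antithrombin, had a mean of 2.48, and Serpind1, or heparin cofactor II, one of 1.90 by the authors' deposited table, where Serpind1 is listed at 0 under condition B. Serpina5, or protein C inhibitor, is listed at 0 under condition A with a mean of 2.11 in that table, and Serpina10 is listed at 0 in both conditions. The hormone carriers Serpina6, of corticosteroids, and Serpina7, of thyroxine, were listed at 0 in both conditions and at a mean of 1.00 by the authors' deposited table.

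In clade a nearly all reads came from 1 group of neighbouring genes. Of its 25 members, 11 were listed at 0 in both conditions and 6 at 0 under condition A alone by the authors' deposited table. Of the 5 antitrypsin genes Serpina1a to Serpina1e, 4 were at 0 in both conditions, and Serpina1b had a mean of 0.527, by the authors' deposited table. Genes named Serpina3, relatives of human antichymotrypsin, held 99.6% of the clade's summed mean, and Serpina3f, Serpina3g, Serpina3h and Serpina3i alone held 97.3%.

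Serpina3h had a mean of 1936 and was 313-fold higher under condition B by the authors' deposited table (log2 ratio 8.29, adjusted p = 1.28e-14). By authors' p-value 1 gene of the whole table ranked ahead of it. The RefSeq annotation of GRCm38 lists Serpina3h as a transcribed pseudogene, and every other member at the minimum as protein coding. Serpina3i had a mean of 156 and was 64.9-fold higher under condition B by the authors' deposited table (log2 ratio 6.02, adjusted p = 0.00648). Serpina3g, also called Spi2A, which guards cells against lysosomal cathepsins, had a mean of 1521 and was 4.33-fold higher by the authors' deposited table (log2 ratio 2.11), without passing (adjusted p = 0.118). Serpina3f, under the minimum at a mean of 38.6, was 9.17-fold higher by the authors' deposited table (adjusted p = 1). Serpina3n, a secreted inhibitor of granzyme B, had a mean of 84.2 and a log2 ratio of 0.19 by the authors' deposited table (adjusted p = 1). The 4 genes f to i thus had log2 ratios of at least 2.11, while Serpina3n of the same group did not reach 1.

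These genes resemble each other, which bears on their counts. Over 1048 aligned bases the longest transcripts of Serpina3h and Serpina3i were 93.9% identical, those of Serpina3h and Serpina3g 93.8% over 837 bases, and those of Serpina3h and Serpina3n 87.2% over 1034 bases. Of all 50-base windows of the Serpina3h transcript, 24.4% occurred unchanged in another member, as did 15.4% of those of Serpina3g, 11.99% of those of Serpina3i and 6.75% of those of Serpina3n. How shared reads were counted is not stated by the sources used here, and values of single Serpina3 genes are uncertain.

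Clade b went both ways. Among its 9 genes at the minimum, 4 were higher under condition B, 2 higher under condition A and 3 within the size rule. Over all genes at the minimum, 8.31% and 9.60% were higher in these directions. Log2 ratios of the 9 ran from -1.93 to 7.53 by the authors' deposited table. With a minimum mean of 200, 1 gene of the clade was higher under condition B and 2 under condition A. As for the family, these counts describe the genes that reach the minimum and not the clade. The genes named Serpinb6 held 53.0% of the clade's summed mean and those named Serpinb9 38.3%.

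**Figure D3:**
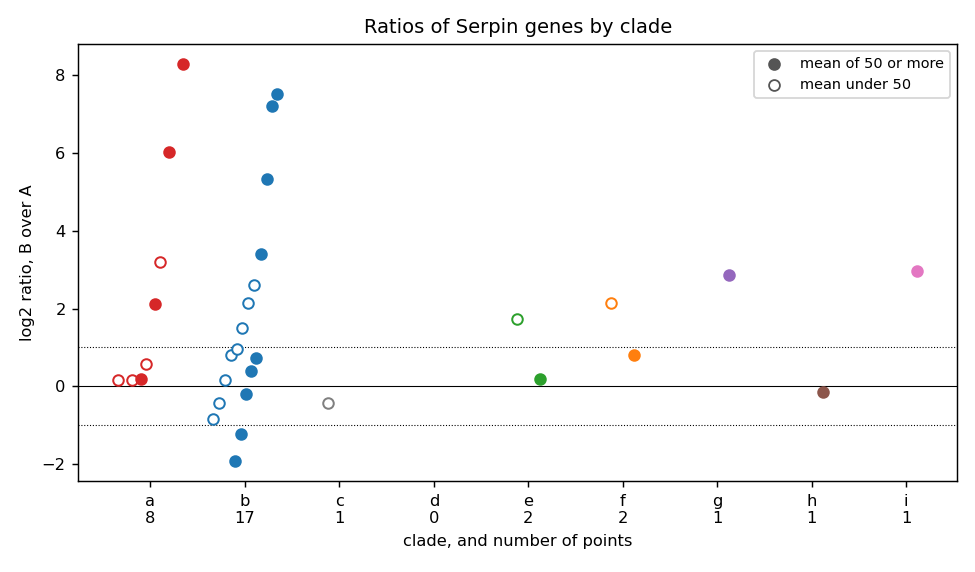
Log2 ratio of condition B over condition A for 33 Serpin genes with a finite ratio, by clade. Filled points have a mean of at least 50 and open points a lower one, the number under each letter counts its points, and dotted lines mark 1 and -1. The 8 points of clade a are above 0, and clade b has 12 above and 5 below. Serpina1f, Serpina7 and Serpinb11, at 0.15, have means of 1.00.

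Serpinb6a, which inhibits cathepsin G, was the most abundant gene of clade b with a mean of 19606. Its log2 ratio was 0.74 by the authors' deposited table (adjusted p = 1). Serpinb6b had a mean of 895 and was 3.81-fold lower under condition B by the authors' deposited table (log2 ratio -1.93), without passing (adjusted p = 0.288). Serpinb6c had a mean of 176 and was 184-fold higher under condition B by the authors' deposited table (log2 ratio 7.53, adjusted p = 0.000496). Serpinb6d and Serpinb6e were listed at 0 in both conditions by the authors' deposited table. Serpinb6b and Serpinb6c, whose ratios point in opposite directions, were 86.5% identical over 1180 aligned bases and shared 2.05% and 3.44% of their 50-base windows with each other.

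Serpinb9, which protects cells from granzyme B, had a mean of 4128 and was 2.32-fold lower under condition B by the authors' deposited table (log2 ratio -1.21, adjusted p = 0.875). Its paralog and neighbour Serpinb9b had a mean of 10808 and was 10.6-fold higher by the authors' deposited table (log2 ratio 3.40, adjusted p = 9.80e-05). Their longest transcripts were 78.3% identical over 1957 aligned bases, and 0.380% of the 50-base windows of Serpinb9 and 0.406% of those of Serpinb9b were shared with another member. Serpinb9c to Serpinb9g had means from 1.48 to 6.75 by the authors' deposited table.

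Serpinb1a, an inhibitor of neutrophil elastase, had a mean of 1530.2 and a log2 ratio of -0.20 by the authors' deposited table. Serpinb8, an inhibitor of furin, had a mean of 1660.2 and a log2 ratio of 0.38 there. Both lay within the size rule, with an adjusted p of 1. Serpinb7, or megsin, known from kidney mesangium and skin, had a mean of 71.1 and was 149-fold higher under condition B by the authors' deposited table (log2 ratio 7.22), without passing (adjusted p = 0.105). Ratios this large at low means rest on very few reads under condition A, and their folds are imprecise. This holds for Serpinb7, Serpinb2, Serpinb6c, Serpina3i, the proteases Cma2 and Klk14 and the endothelial marker Emcn. Serpinb5, or maspin, an epithelial gene, had a mean of 0.527 and is listed at 0 under condition A. The epidermal Serpinb3 genes had means of 0.527 (Serpinb3a) and 0 (Serpinb3b, Serpinb3c and Serpinb3d) by the authors' deposited table.

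Among the 26 members with reads but a mean under 50, means ran from 0.527 to 38.6 by the authors' deposited table. Of these, 15 had reads in both conditions, 12 with a ratio above 1 and 3 with one below. Another 10 are listed at 0 under condition A and 1, Serpind1, at 0 under condition B. Over the 1090 genes of the table at 0 under condition A alone, 100% of means were whole multiples of 0.527 (within 0.001 of a multiple), and the 10 members stood at 1 to 4 times that step. No fold is given for them.

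All genes of clades a and b but 1 lie in 3 clusters. In the order of the RefSeq annotation, 24 of 25 clade a genes formed 1 cluster, and clade b genes formed a cluster of 15 and another of 12. In the Serpina cluster, Serpina3f, Serpina3g, Serpina3h and Serpina3i stood next to each other, with Serpina3j, Serpina3k and Serpina3m, all listed at 0, between them and Serpina3n. Of the 5 nearest genes at the minimum on each side of that cluster, 1 was higher under condition B past the size rule and 2 higher under condition A, and their log2 ratios had a median of -0.17. The interferon-induced Ifi27l2b, 1 of these flanking genes, had a log2 ratio of 9.44 by the authors' deposited table, and Ppp4r4, nearest to the cluster on that side, one of -0.40.

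In the cluster with Serpinb1, Serpinb6 and Serpinb9 genes, Serpinb6b, Serpinb9 and Serpinb9b were consecutive, with log2 ratios of -1.93, -1.21 and 3.40 by the authors' deposited table. At its far end Serpinb6c at 7.53 stood beside Serpinb6a at 0.74. Of 10 flanking genes at the minimum, 0 were higher under condition B past the size rule and 1 was higher under condition A. In the cluster of 12 Serpinb7 and Serpinb2 were neighbours with log2 ratios of 7.22 and 5.32, and Serpinb8, beyond Serpinb10, lay at 0.38 by the authors' deposited table. Of 10 flanking genes there, 0 were higher under condition B and 1 was higher under condition A. Each cluster thus held both high and low ratios among its genes at the minimum, not always as direct neighbours. The flanking medians of 0.17 and 0.04 lay near 0.

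**Figure D4:**
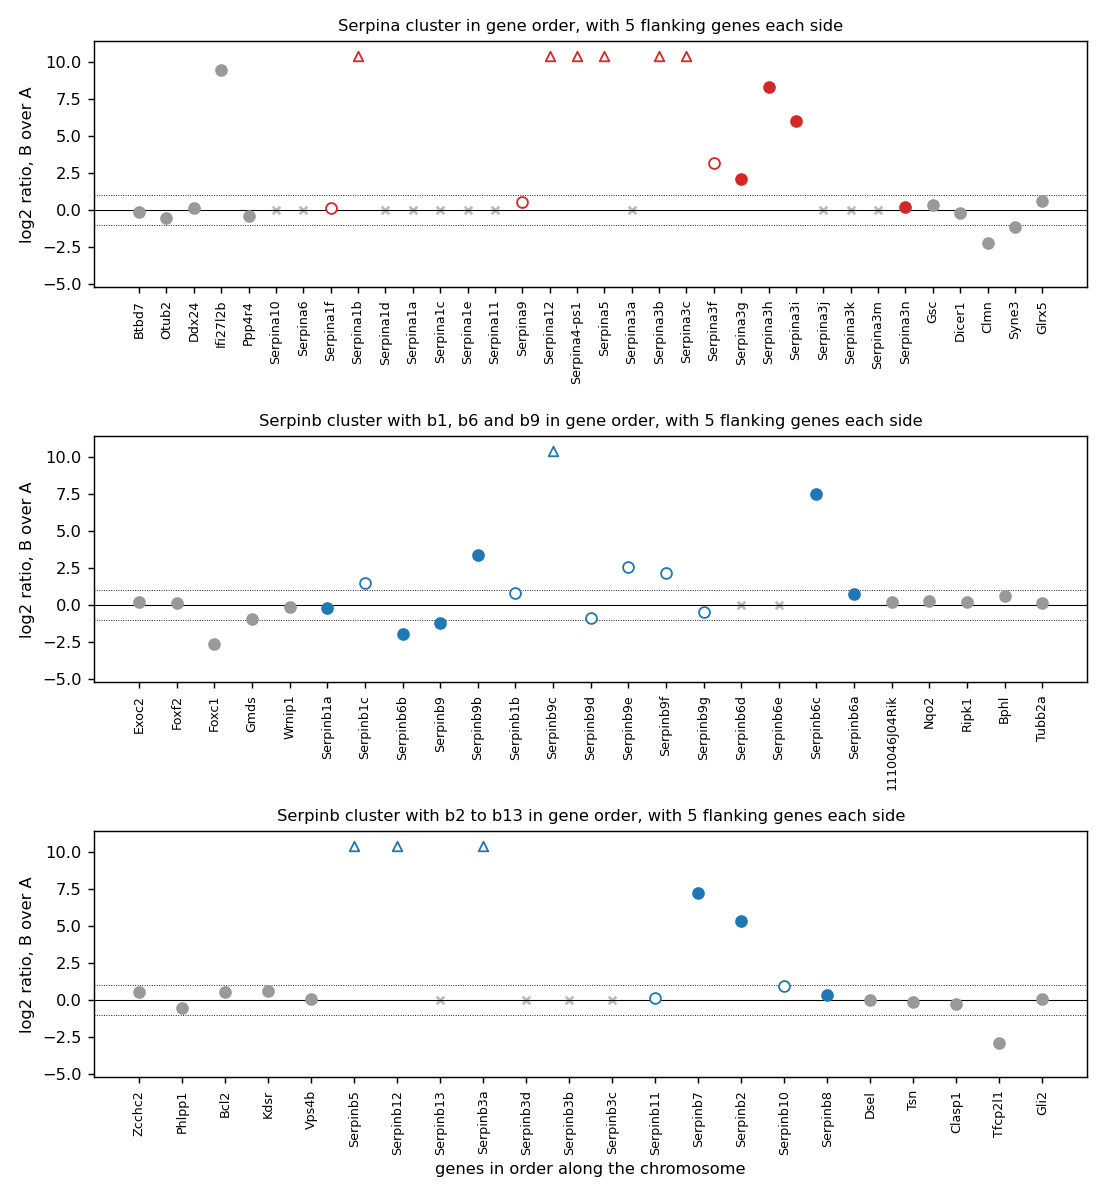
Log2 ratio of condition B over condition A for the genes of 3 serpin clusters in gene order (horizontal, spacing not to scale), with 5 flanking genes at the minimum mean on each side in grey. Filled points have a mean of at least 50, open points a lower one, triangles at the top edge are listed at 0 under condition A, and crosses are at 0 in both. Neighbours Serpina3f to Serpina3i lie at 2.11 or above, and Serpinb6b, Serpinb9 and Serpinb9b at -1.93, -1.21 and 3.40.

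The sequence before the start site was read for the members because TET enzymes act on methylated CG dinucleotides. DNA methylation was not measured in these libraries. RefSeq promoters (GRCm38.p6, 250 bases before to 50 after the first listed start, a build other than the authors' mm9) were matched by symbol for 52 of 63 members. For 39 of the 52 a stretch of the bases just after the start was found unbroken in a GENCODE transcript of the same gene. Among the members at the minimum it was not found for Serpinb6c, Serpina3g, Serpina3n and Serpini1, whose starts are therefore uncertain. No promoter was matched for Serpina3h, Serping1 and Serpinb1a, which are outside the 52. The median number of CG dinucleotides was 3 for these 52, 4 for the 15 at the minimum and 21 for 9231 genes at the minimum with a promoter. More than 10 CG were held by 4 of those 15 members (26.7%), against 83.3% of genes at the minimum. The 4 were Serpine2 with 41, Serpinb6a with 25, Serpinh1 with 16 and Serpini1 with 15.

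The 250 bases before the start are shown for the abundant Serpinh1 and for 3 genes of clade b that differ in ratio, with each CG in capitals. Serpinh1 lies on the minus strand at chr7:99353240-99353489, Serpinb6a on the minus strand at chr13:34002795-34003044, Serpinb6c on the minus strand at chr13:33905192-33905441 and Serpinb9b on the plus strand at chr13:33027164-33027413.
Serpinh1: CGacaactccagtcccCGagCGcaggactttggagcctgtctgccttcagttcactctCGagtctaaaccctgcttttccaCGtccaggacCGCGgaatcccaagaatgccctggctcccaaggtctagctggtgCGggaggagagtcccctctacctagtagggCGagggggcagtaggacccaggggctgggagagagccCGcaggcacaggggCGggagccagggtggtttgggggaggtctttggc
Serpinb6a: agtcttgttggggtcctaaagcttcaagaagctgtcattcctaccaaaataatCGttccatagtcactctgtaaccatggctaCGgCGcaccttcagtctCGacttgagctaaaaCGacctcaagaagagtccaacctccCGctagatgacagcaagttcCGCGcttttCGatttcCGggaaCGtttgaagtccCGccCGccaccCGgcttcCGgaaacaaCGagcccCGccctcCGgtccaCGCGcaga
Serpinb6c: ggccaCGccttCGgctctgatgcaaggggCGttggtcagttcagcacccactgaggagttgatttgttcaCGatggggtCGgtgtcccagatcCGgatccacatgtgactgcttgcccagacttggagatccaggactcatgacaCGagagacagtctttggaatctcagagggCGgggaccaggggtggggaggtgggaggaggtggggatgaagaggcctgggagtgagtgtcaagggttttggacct
Serpinb9b: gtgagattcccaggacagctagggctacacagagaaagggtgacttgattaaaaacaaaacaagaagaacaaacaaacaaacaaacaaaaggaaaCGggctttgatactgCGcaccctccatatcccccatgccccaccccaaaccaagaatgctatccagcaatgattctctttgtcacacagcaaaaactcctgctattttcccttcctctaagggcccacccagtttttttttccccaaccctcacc

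These stretches held 11 CG for Serpinh1, 20 for Serpinb6a, 8 for Serpinb6c and 2 for Serpinb9b. By the authors' deposited table Serpinh1 and Serpinb6a had log2 ratios of -0.15 and 0.74, and Serpinb6c and Serpinb9b 7.53 and 3.40. These 4 genes were picked with their ratios known, and other members differ in their pairing of CG number and ratio. In the 300 bases Serpini1 held 15 CG at a log2 ratio of 2.97 by the authors' deposited table, Serpinf1 3 at 0.80, Serpinb9 5 at -1.21 and Serpinb6b 4 at -1.93. The start used for Serpinb6c was not matched by a GENCODE transcript.

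Short motifs were searched on both strands of the 300 bases. TTCNNNGAA, the core letters bound by STAT factors, occurred in 8 of 52 members (15.4%) and in 8.47% of 27025 promoters. TGANTCA, of AP-1, occurred in 11 members (21.2%) and in 7.93% of all, and TATAAA in 14 (26.9%) and 14.2%. Members of 1 group share sequence, so they are not independent. Of the 5 clade a members with TTCNNNGAA, 3 were Serpina3f, Serpina3g and Serpina3i. TGANTCA occurred in Serpinb11, Serpinb7, Serpinb2, Serpinb10 and Serpinb8, which follow each other in the cluster of 12. Of these Serpinb11 had a mean of 1.00. It also occurred in Serpinb5 and Serpinb12 of that cluster, each with a mean of 0.527. The other holders were Serpina1a to Serpina1d. A match is a description of letters and not a measured site.

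The stretch before the start is shown for 3 Serpina3 genes with TTCNNNGAA in capitals, since 2 of them hold it and differ in ratio from Serpina3n. All 3 are on the plus strand, Serpina3g at chr12:104235897-104236146, Serpina3i at chr12:104262872-104263121 and Serpina3n at chr12:104406458-104406707.
Serpina3g: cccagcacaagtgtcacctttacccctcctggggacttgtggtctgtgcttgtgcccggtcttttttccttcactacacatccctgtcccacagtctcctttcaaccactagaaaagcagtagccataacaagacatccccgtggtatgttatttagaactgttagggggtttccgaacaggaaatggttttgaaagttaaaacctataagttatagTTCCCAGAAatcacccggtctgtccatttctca
Serpina3i: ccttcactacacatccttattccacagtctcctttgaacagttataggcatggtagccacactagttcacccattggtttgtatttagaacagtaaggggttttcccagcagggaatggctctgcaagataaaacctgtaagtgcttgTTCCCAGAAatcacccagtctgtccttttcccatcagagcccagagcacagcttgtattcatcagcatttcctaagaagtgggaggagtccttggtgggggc
Serpina3n: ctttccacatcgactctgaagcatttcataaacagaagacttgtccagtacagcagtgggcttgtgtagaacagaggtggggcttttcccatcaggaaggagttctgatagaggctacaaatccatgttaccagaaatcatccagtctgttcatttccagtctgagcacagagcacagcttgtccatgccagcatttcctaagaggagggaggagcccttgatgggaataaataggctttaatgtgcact

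Serpina3g and Serpina3i each held 1 match in this stretch and Serpina3n 0, beside log2 ratios of 2.11, 6.02 and 0.19 by the authors' deposited table. The starts used for Serpina3g and Serpina3n were not matched by a GENCODE transcript, and the 3 genes were picked with their ratios known. In the 300 bases Serpinb2 and Serpinb6a also held the motif, at log2 ratios of 5.32 and 0.74 by the authors' deposited table. So did members under the minimum, Serpina3f at 3.20 (mean 38.6) and Serpina1f at 0.15 (mean 1.00). The last holders were Serpinb9c, listed at 0 under condition A, and Serpina11, at 0 in both conditions. Serpinb6c, Serpinb7 and Serpinb9b did not hold it at 7.53, 7.22 and 3.40 in the same table.

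Serpin targets and partners, related proteases and other protease inhibitors were read from 8 lists with 194 matched genes, of which 94 reached the minimum. Of these 94 not all are acted on by serpins, and 16 at the minimum are in the list of other protease inhibitors. Past the size rule 20 of the 94 were higher under condition B and 6 higher under condition A, where 8.31% and 9.60% of all genes at the minimum were, and the median log2 ratio was 0.29, against -0.04 over all genes. The authors' deposited table calls 10 of them higher under condition B and 3 higher under condition A, against 1.98% and 1.22% of all genes at the minimum. As with the members, counts at the minimum, here and for each list below, describe the genes that reach it and not the lists. The shares of 8.31% and 9.60% over all genes stand beside the size counts of each list below.

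Of 12 genes of plasminogen activation at the minimum, 2 were higher under condition B past the size rule and 0 were called. They were the matrix metalloprotease genes Mmp9 and Mmp3, with log2 ratios of 4.06 and 2.64 by the authors' deposited table. Mmp2, a gelatinase of connective tissue, had one of -0.95 there. Of 9 coagulation and thrombin genes 2 were higher under condition B and 1 higher under condition A. F2r, the thrombin receptor, had a mean of 29431 and was 4.98-fold higher under condition B by the authors' deposited table (adjusted p = 0.0203). F2rl1, a related receptor, had a log2 ratio of 1.90 and thrombomodulin, Thbd, one of -1.32 there, and neither passed.

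Granule serine proteases of leukocytes and mast cells had 3 of 23 genes at the minimum. All 3 were higher under condition B past the size rule, against 8.31% of all genes at the minimum. Genes near 0 under condition A, such as Cma2, reach the minimum only if high under condition B. This count thus describes the 3 genes and not the list. Cma2 was 162-fold and Gzme 28.4-fold higher under condition B by the authors' deposited table (adjusted p = 0.0723 and 0.0543), and Mcpt8 had a log2 ratio of 2.07 without passing. The means of the 7 mast cell markers summed to 32.7, with 0 at the minimum. Ms4a2 (mean 14.2) and Cma1 (mean 12.5) had log2 ratios of 4.85 and 3.61 by the authors' deposited table, Kit had one of -0.17, and Fcer1a and Tpsb2 were listed at 0 in both conditions. The means of the 9 leukocyte markers summed to 378. At the minimum Lyz2, Csf1r, Cd68 and Cd14 had log2 ratios of 3.84, 1.05, 0.18 and -1.95 by the authors' deposited table, Ptprc had a mean of 3.53, and Cd3e and Emr1 were listed at 0 in both conditions. The part of these cells in the protease ratios was not tested. Of 12 cathepsins at the minimum, Ctsk was 4.71-fold higher (adjusted p = 0.0837) and Ctsh 7.04-fold lower under condition B by the authors' deposited table (adjusted p = 0.00443). The other 10 lay within the size rule. Ctsf had a log2 ratio of 0.97 there.

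Kallikreins and membrane-anchored proteases had 10 of 26 genes at the minimum. Past the size rule 6 were higher under condition B and 1 higher under condition A, against 8.31% and 9.60% of all genes at the minimum. These counts describe the 10 genes and not the list. Klk14, a kallikrein of the skin, was 110-fold higher under condition B by the authors' deposited table (adjusted p = 0.00221) and Fap, the fibroblast activation protein, 18.4-fold higher (adjusted p = 0.0174). Prss22 had a log2 ratio of -5.51 by the authors' deposited table (adjusted p = 0.00444). Keratinocyte and epithelial markers did not follow 1 direction beside Klk14. At the minimum Krt10 had a log2 ratio of 0.09 and Krt18 one of -2.29 by the authors' deposited table. Under the minimum, Krt5, Lor and Ivl had log2 ratios of 4.24, 1.79 and 1.25 there, and Krt1 one of 0.15. Trp63, Cdh1, Epcam and Krt8 had ones of -2.63, -1.81, -1.66 and -2.66. Krt14, with a mean of 0.527, is listed at 0 under condition A. The part of these cell types in the protease ratios was not tested.

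Among 16 other protease inhibitors at the minimum, 4 were higher under condition B and 1 higher under condition A. Pi16 was 61.7-fold higher under condition B (adjusted p = 0.000273) and Itih2, of the inter-alpha-trypsin inhibitors, 5.50-fold lower (adjusted p = 0.0224) by the authors' deposited table. Timp3, a metalloprotease inhibitor bound to matrix, had a mean of 81046 and a log2 ratio of 1.98 by the authors' deposited table (adjusted p = 0.0784). In the collagen folding list Leprel1 and P4ha3, collagen prolyl hydroxylases, had log2 ratios of 1.71 and 1.21 and Adamts14, a procollagen protease, one of -1.51 by the authors' deposited table, and 0 of the 28 were called.

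**Figure D5:**
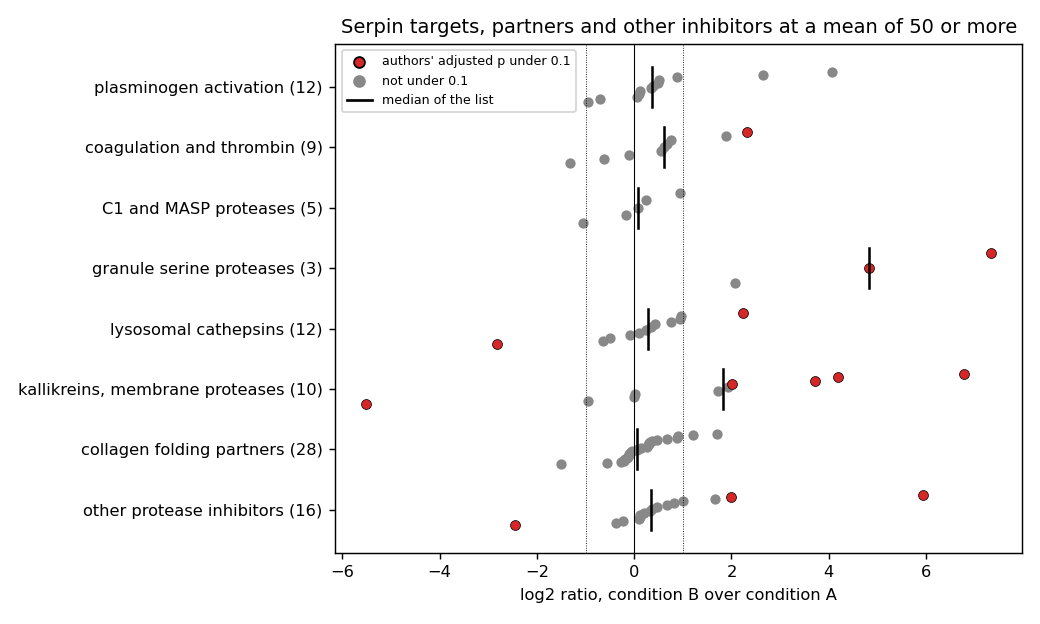
Log2 ratio of condition B over condition A (horizontal) for the genes of 8 lists of serpin targets, partners and other inhibitors with a mean of at least 50, 1 point per gene, with the number of genes in brackets. Red points have an authors' adjusted p under 0.1, black bars mark each list's median, and dotted lines mark 1 and -1. The collagen folding partners centre on 0.06, and Prss22 is the lowest point at -5.51.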

How the data were processed

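RNA was sequenced from mouse embryonic fibroblasts of 2 genotypes, 1 library each, and 1 comparison table was deposited. TopHat2 2.0, DESeq and the build mm9 appear among the submitters' processing notes. The counter, annotation and read length were not given in the sources used here. Per the file headers, the table holds the authors' mean normalized count over both conditions (a signal, which in DESeq's naming is counts divided by size factors), the ratio (fold) of condition B over condition A, its log2, a p-value and an adjusted p-value. The 2 per-condition columns name no genotype and were not used. Total counts per library are not listed in these columns. The means of all genes summed to 58127871 normalized counts. The depth of each library was not worked out from them, and no interval is given.

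No test was added to those of the authors. Genes with a mean of at least 50 were counted by size (log2 ratio of at least 1) and by the authors' adjusted p under 0.1. Near-identical members (85% identity over at least 500 bases) were found by aligning the longest GENCODE M21 transcripts with blastn (BLAST 2.17.0). Gene order, biotype and promoters came from RefSeq (GRCm38) and serve for names, order and sequence only. Scripts (Python 3.11.15, pandas 2.3.3) were tested on simulated data. Members were named at the minimum mean (1 excepted), and from each list up to 3 genes with the largest ratios. Other genes named (markers, flanking genes, members under the minimum) were chosen after their values were seen. Members and lists were chosen with earlier results of these data known. The minimum, the size rule, the adjusted p, the scaling and near-identical members were varied. Counts cover all members, but the values of that 1 member are not reported here or plotted.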

Additional observations from a re-analysis of the deposited data

How the results depend on the processing

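Of 146 recomputed counts, 118 stayed within 1.5 times the reported one. Both centrings (on the trimmed mean or the median ratio, each a shift of -0.04) left all 20 counts so and turned 0 of 19 member ratios. So small a shift could not change the authors' calls, whose smallest log2 ratio in size was 1.97. Nor could it turn a member ratio, the smallest in size being -0.15 for Serpinh1. The 118 include such counts of calls, which centring could not move. With a minimum mean of 200, members higher in condition B numbered 5, those of clade b 1 and list genes 12, and calls were 1 in clade a and 1 in clade b. With no minimum, 25 members, 10 of clade a, 11 of clade b and 4 of clades c to i were higher in condition B and 1 of clades c to i in condition A, and list genes numbered 43 and 28 in these directions. With a minimum of 10, list genes higher in condition A numbered 11. With a log2 ratio of at least 2, 0 members (0 of clade b) were higher in condition A, and list genes numbered 12 higher in condition B and 3 in condition A. With a 1.5-fold ratio, 4 members of clades c to i and 32 list genes were higher in condition B and 11 list genes in condition A. With adjusted p under 0.05, 5 list genes were called higher in condition B. Without 26 members that have a near-identical transcript, an alternative added after seeing the data, 5 members (0 of clade a) were higher in condition B, 1 (of clade b) in condition A, and 3 were called (0 of clade a and 1 of clade b). The planned protein identity was not run because no protein table was used here. No library could be left out with 1 per genotype. No paired analysis was possible because each genotype has 1 library.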
